A study of Mus musculus with 40 samples.

Results

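The immunoglobulin loci of the mouse are the heavy chain locus Igh, the kappa light chain locus Igk and the lambda light chain locus Igl. DNA methylation at these loci was followed in 100 bp tiles that lie inside mm9 windows at chr12:114490000-117250000 for Igh, chr6:67500000-70700000 for Igk and chr16:19020000-19265000 for Igl. Of the 971845 tiles in the table, 1258 lay in the windows, and 974 of these had a value in at least 1 library. Igh held 496 tiles (395 with a value), Igk 686 (522 with a value) and Igl 76 (57 with a value).

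The assay was RRBS, a bisulfite sequencing method limited to fragments rich in CpG sites, in pro-B cells and follicular (FoB) B cells of C57/bl mice. Each of the 2 stages was represented by wild type (WT), a Tet2 knockout (Tet2KO), a Tet3 knockout (Tet3KO) and a knockout of both genes (DKO), with 3 libraries per group and 24 in all. The labels call the knockouts inducible and give Mb1 as the promoter, a promoter of the B lineage. WT replicates of a stage differ in sex or age, while the knockout groups hold replicates that share both. Since the labels leave it unsaid whether those are different mice, p-values measure the spread between these libraries. The pro-B and follicular libraries of a genotype match in sex and age, and the labels do not say whether they share mice. Mice were 6 to 8 weeks old, and the sexes were mixed except in Tet2KO, where every library came from females. The WT libraries came from mice of 6 and 8 weeks, Tet2KO likewise, Tet3KO from mice of 7 weeks, and DKO from mice of 6 and 7 weeks. All groups share the strain and the label of B-lineage cells; the identity of the cells was not checked against markers, since the table holds methylation only. The 16 RNA samples were not analysed here.

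A B cell assembles its antigen receptor by V(D)J recombination, which joins a variable (V), at Igh a diversity (D), and a joining (J) segment and usually deletes the DNA between them. The heavy chain is rearranged first, in pro-B cells, and the light chains afterwards, so that follicular B cells carry rearranged heavy and light chain alleles. Constant (C) genes encode the part of the chain that sets the antibody class, and enhancers close to them act on transcription and recombination of the locus. TET enzymes oxidise methylated cytosine, a step that leads to loss of methylation.

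Each locus was divided by position. At Igh, which is read on the minus strand, the first 180 kb of the window were taken as the constant end, the stretch from 180 to 270 kb as the D part and the rest as the variable end. At Igk the last 40 kb were taken as the constant end, and at Igl the first 55 kb as the C3-C1 part, the stretch to 200 kb as the V1 and C4-C2 part and the rest as the V3 and V2 part. RefSeq (assembly GRCm38.p6), used only for names and order, lists 120 Igh V segments with 63 V pseudogenes, 10 D segments, 4 J segments and 8 constant genes that run Igha, Ighe, Ighg2c, Ighg2b, Ighg1, Ighg3, Ighd and Ighm from the window start. It lists 102 V segments, 5 J segments and 1 constant gene for Igk, and 3 V segments and 3 constant genes for Igl. No mm9 annotation was used, so tiles are given by position and no tile is assigned to a segment, exon or intron.

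The tiles were spread unevenly. The Igh constant end held 44 tiles, the D part 15 and the Igh variable end 437. The Igk variable end held 682 tiles and the Igk constant end 4. The 3 parts of Igl held 14, 58 and 4 tiles in the order given above. No tile of the Igh constant end lay in its last 34.7 kb, the stretch next to the D part, so nothing in that stretch could be followed.

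The values are methylation levels per tile and library. Reads per tile are not listed, and the depth of each value is unknown. Libraries had values for 24600 to 631415 tiles of the whole table, with a median of 525374.5. The lowest number belongs to library 8 (pro-B Tet3KO), which had a value for 9 immunoglobulin tiles, so that the pro-B Tet3KO group rests on libraries 7 and 9. Pro-B libraries other than library 8 had values for 34.4% to 79.2% of autosomal tiles with a value anywhere, and follicular libraries for 52.2% to 76.7%. Levels of exactly 100% made up 51.9% of the pro-B values and 33.4% of the follicular values at the immunoglobulin tiles, against 34.5% and 24% over all autosomal tiles.

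The immunoglobulin loci were highly methylated in the 23 libraries other than library 8. Among the 649 tiles with a value in at least 12 of these 23 libraries, 612 (94.3%) had a mean level above 80%, 31 lay between 20% and 80%, and 6 lay below 20%. The median tile level was 94.6%. Over the 496207 autosomal tiles that met the same rule, 59.7% were above 80% and 28.3% below 20%. The tiles within 1 Mb on either side of each window were above 80% in 54.5% of cases around Igh, 49.3% around Igk and 48.3% around Igl. Median tile levels were 85.6%, 78.1% and 70.1% in these flanks and 89.2% over the autosomal tiles. These shares describe the tiles of the table and were not tested.

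Levels per library were compared over tiles that had a value in all 23 libraries, which left 56 tiles at the Igh variable end, 42 at the Igk variable end, 7 in the V1 and C4-C2 part of Igl, 3 in its C3-C1 part and 1 each at the Igh constant end and the D part. The Igh variable end lay between 86.7% and 88.8% in the 23 libraries. The Igk variable end lay between 87.9% and 94.2%. Both ranges were narrow, and libraries of all groups were mixed within them. The flanks of the same loci lay at 21.2% to 24.9% for Igh, 10.4% to 12.4% for Igk and 13.1% to 15.7% for Igl, and the mean over all autosomal tiles with complete values lay at 26.4% to 29.4%. Outside the loci, tiles with a value in at least 12 libraries lay far higher. Their medians were 85.6%, 78.1% and 70.1% in the flanks of Igh, Igk and Igl and 89.2% over the autosomal tiles. The size of the gap at complete tiles thus depends on which tiles were taken.

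**Figure D1:**
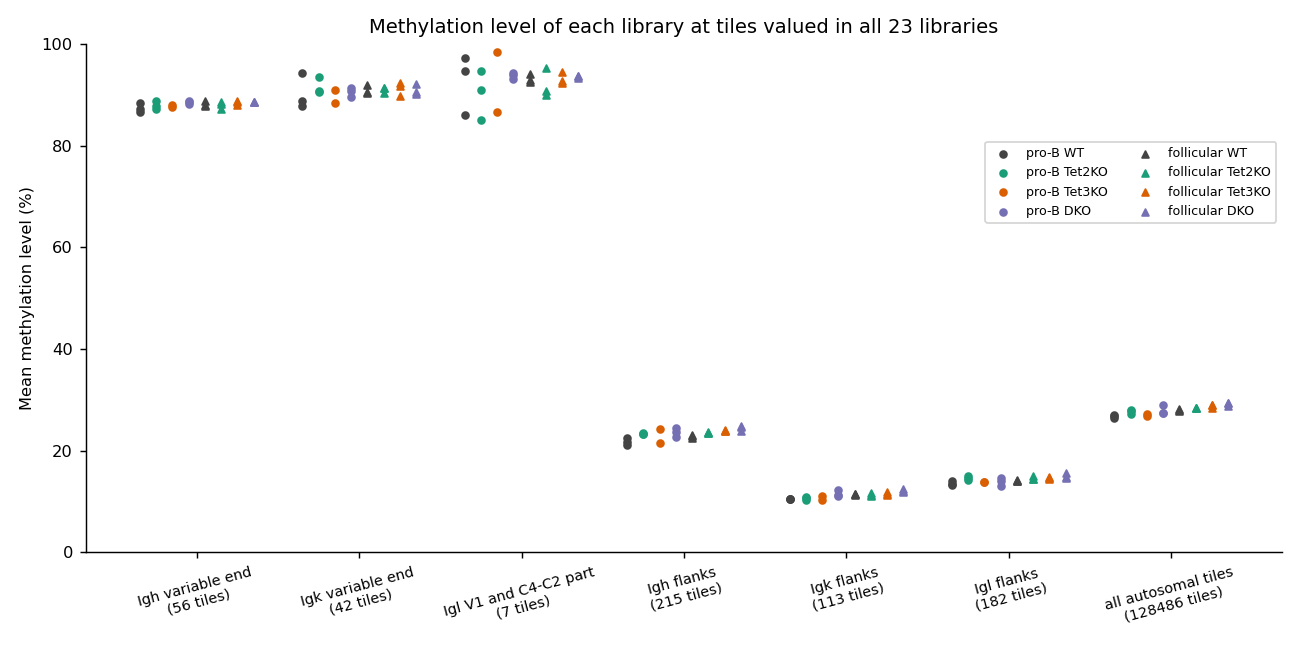
The plot of levels by locus gives the mean methylation level of each library (vertical axis, percent) over tiles valued in all 23 libraries, for 3 locus parts, the 1 Mb flanks of each locus and all autosomal tiles; circles are pro-B and triangles follicular libraries, coloured by genotype. At these complete tiles the variable ends of Igh and Igk stay above 86% in all 23 libraries plotted, while the flanks stay below 25%. Flank tiles valued in at least 12 libraries, not plotted, had medians of 70.1% to 85.6%.

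At the Igh variable end the level was 87.4% ± 0.842 (SD, n = 3) in pro-B WT, 87.9% ± 0.793 (n = 3) in pro-B Tet2KO, 87.7% ± 0.265 (n = 2) in pro-B Tet3KO and 88.5% ± 0.244 (n = 3) in pro-B DKO. In follicular cells WT stood at 88.2% ± 0.517, Tet2KO at 88.1% ± 0.709, Tet3KO at 88.5% ± 0.384 and DKO at 88.6% ± 0.0254, each with n = 3. Every pair of neighbouring groups in this order of levels differed by less than the larger of their SDs. Follicular libraries were 0.441 points above pro-B libraries (exact two-sided permutation test within genotype, p = 0.0675, adjusted p = 0.540 over 24 comparisons). DKO libraries were 0.710 points above WT (exact permutation p = 0.055, adjusted p = 0.540).

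At the Igk variable end the level was 90.3% ± 3.41 in pro-B WT (n = 3) and 90.9% ± 0.830 in follicular WT (n = 3). Follicular DKO stood at 91.0% ± 1.10 (n = 3) and pro-B DKO at 90.6% ± 0.895 (n = 3). Tet2KO stood at 91.6% ± 1.58 in pro-B and 91.0% ± 0.603 in follicular cells (n = 3 each). Tet3KO stood at 89.7% ± 1.88 in pro-B (n = 2) and 91.3% ± 1.32 in follicular cells (n = 3). The stage difference was 0.512 points (exact permutation p = 0.453) and the DKO difference 0.142 points (exact permutation p = 0.895). Neither was larger than the spread between libraries.

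No comparison of level passed adjustment in the smaller parts either, but these rest on only 1 to 7 complete tiles. The C3-C1 part of Igl lay between 85.7% and 100% in the libraries, and its V1 and C4-C2 part between 85.1% and 98.5%. The 1 complete tile of the D part, chr12:114726901-114727000, ranged from 78.4% to 100%. The 1 complete tile of the Igh constant end, chr12:114612801-114612900, ranged from 68.2% to 100% and differed by -8.81 points between follicular and pro-B libraries (exact permutation p = 0.0196, adjusted p = 0.470). Of the 24 comparisons of level, 1 had an unadjusted p below 0.05 and none an adjusted one. Against the flanks the count was likewise 1 of 24 and 0 after adjustment.

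By position, the first 1 Mb of the Igh variable end, counted from the constant side, had group means of 79.6% to 81.6% over 21 tiles. The second had 93.1% to 94.1% over 18 tiles and the last 90.3% to 92.6% over 17 tiles. The first stretch lay below the others in every group when all its 21 tiles were counted. It spans the run of 4 adjacent tiles with little methylation that is described next. The last tile of this run, starting at chr12:115617301, had values in only 2 libraries of pro-B DKO and 2 of follicular Tet3KO. That tile is therefore not among the 21 tiles, while the rest of the run is, with group means of 0% to 13.4%. The mean of the stretch without the run was not computed, so a lower level is not shown for its other tiles. In the 4 successive stretches of Igk, counted from the constant side, group means ran from 89.1% to 94.1%, from 86.1% to 89.6%, from 89.2% to 92.2% and from 89.4% to 95.4%. At Igk the ranges of all 4 stretches overlapped, that of the second only at its upper end. Groups differed within a stretch by about as much as stretches did.

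The 6 tiles below 20% were all at the Igh variable end, at 2 places. The first is a run of 4 adjacent tiles, chr12:115617001-115617400. Its tile means over the libraries were 4.08% to 6.23%, and no library had a level above 37.5% in any of them. The second place holds chr12:116169401-116169500, with a mean of 19.6%, and chr12:116169601-116169700, with a mean of 5.23%. The run of 4 stayed low in every group, while the level at the second place differed between genotypes.

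Intermediate levels, between 20% and 80%, were found at 31 tiles (4.78%), against 12% of autosomal tiles. The Igk variable end held 22 of 358 (6.15%), the Igh variable end 4 of 224 (1.79%), the V1 and C4-C2 part of Igl 3 of 31 (9.68%), the Igh constant end 1 of 23 and the D part 1 of 3. These 31 tiles formed 27 separate places, counting tiles within 1000 bp as 1 place, and a single place held more than 1 tile. That place, chr6:68311801-68312600, held 5 intermediate tiles with means of 62.7% to 77.0%. Over its 8 tiles with values, the level was 77.3% ± 5.23 (n = 2) in pro-B WT, 74.1% ± 4.08 (n = 3) in follicular WT, 70.8% ± 5.30 (n = 3) in pro-B DKO and 71.8% ± 3.64 (n = 3) in follicular DKO. All 8 group means of this place lay between 70.5% and 77.3%, so it was intermediate in both stages and in every genotype. Libraries with values covered 3 to 8 of these tiles, so differences between the group means also reflect which tiles were valued.

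**Figure D2:**
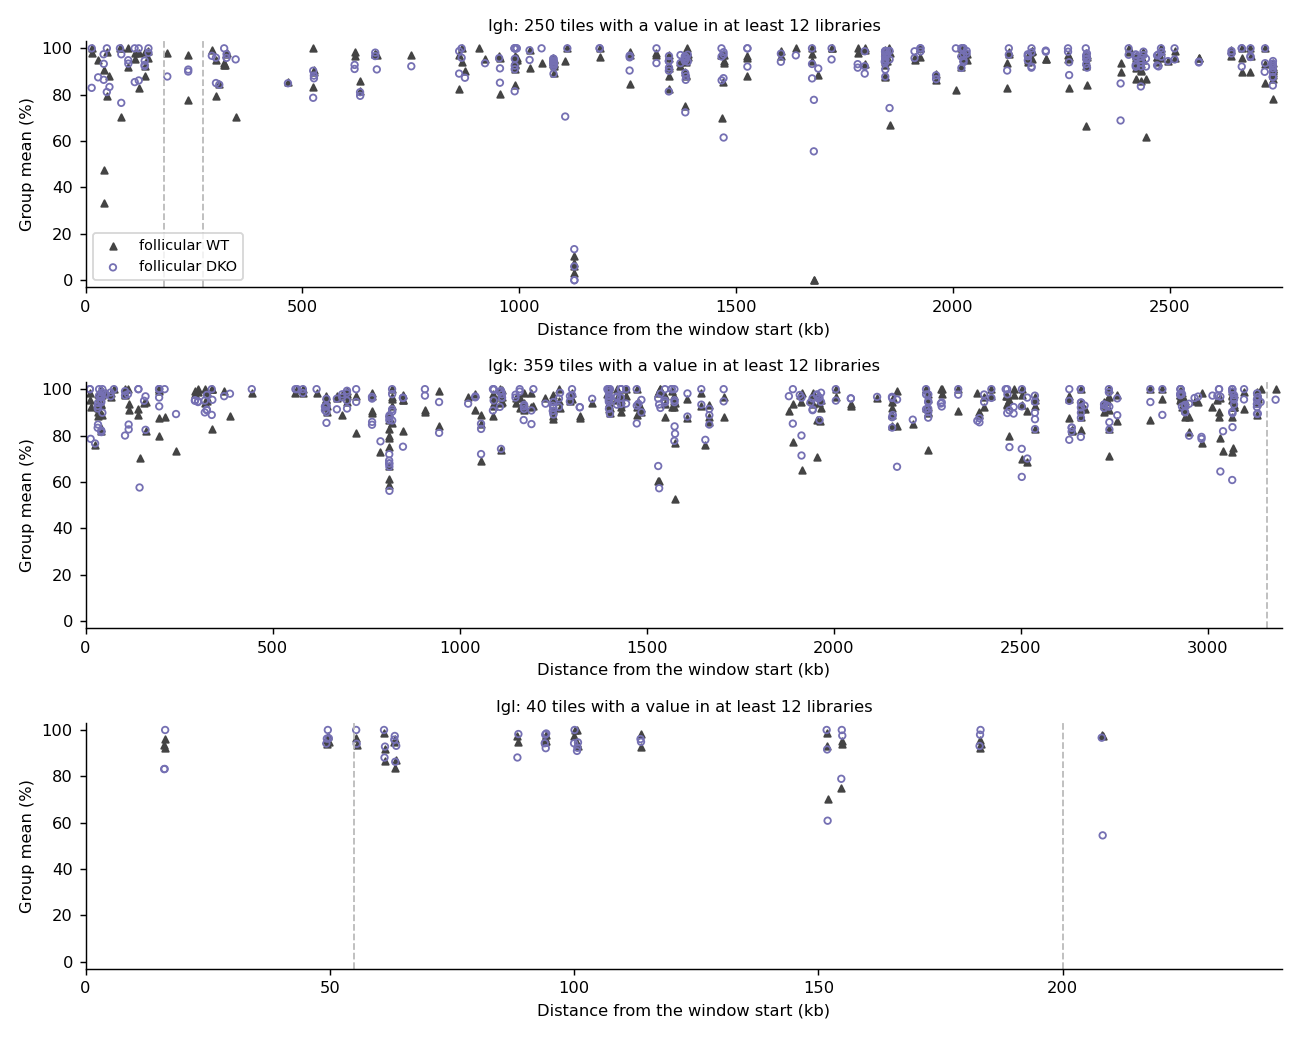
The plot of levels along the loci gives the mean level of the follicular WT libraries (triangles) and follicular DKO libraries (open circles) at each tile valued in at least 12 libraries (vertical axis, percent), against its distance from the window start in kb; dashed lines separate the parts of a locus. Nearly all tiles lie above 80%, the low run of Igh lies near 1127 kb, and the tile at 1679.4 kb is near 0 in WT and above 50% in DKO.

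Differences between groups at single tiles were tested with limma over 200813 autosomal tiles with 2 or more valued libraries in each of the 8 groups. Of these, 203 were immunoglobulin tiles: 91 at the Igh variable end, 92 at the Igk variable end, 12 and 4 in the V1 and C4-C2 and the C3-C1 parts of Igl, 3 at the Igh constant end and 1 in the D part. The Igk constant end and the V3 and V2 part had none. A tile was called at an adjusted p (Benjamini-Hochberg over all tiles) below 0.05 and a difference of at least 20 points.

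Between the stages, 0 of 203 tiles were called in WT by limma, where 0.181% of all tiles were called, and 31 had an unadjusted p below 0.05 (15.3%, against 8.50% of all tiles). In Tet2KO 0 were called (background 0.0563%), and 15 had an unadjusted p below 0.05 (7.39%, against 5.96% of all tiles). In DKO 0 were called (background 0.168%), and 16 had an unadjusted p below 0.05 (7.88%, against 9.76%). In Tet3KO 2 tiles were called, both higher in follicular cells (background 0.417%), and 35 had an unadjusted p below 0.05 (17.2%, against 11.9%). The median difference over the 203 tiles in WT was -0.434 points, and over all tiles 0.0432 points. The 2 calls in Tet3KO are 0.985% of 203 tiles and rest on 2 pro-B libraries. The 203 tiles differ in level from the table: in follicular WT 7.88% lay below 80%, against 67.3% of all tiles. No share over highly methylated tiles alone was computed for the unadjusted p, here or between genotypes.

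Between genotypes in pro-B cells, 2 tiles were lower in Tet3KO than in WT (background 0.421%) and 2 were higher in DKO (background 0.231%), while 0 were called in Tet2KO (background 0.0687%). Unadjusted p below 0.05 were found at 38 tiles in Tet3KO (18.7%, against 10.3% of all tiles), 28 in DKO (13.8%, against 8.83%) and 18 in Tet2KO (8.87%, against 6.76%). In follicular cells 2 tiles were higher in DKO (background 0.129%). In the same cells 0 were called in Tet2KO (background 0.00299%) and 0 in Tet3KO (background 0.00996%). Unadjusted p below 0.05 were found at 10 tiles in DKO (4.93%, against 5.82% of all tiles), 9 in Tet2KO (4.43%, against 2.87%) and 12 in Tet3KO (5.91%, against 3.96%). The difference between the DKO effects of the 2 stages was called at 0 tiles (background 0.0289%), with 12 at an unadjusted p below 0.05 (5.91%, against 5.52%). The 8 calls fell on 6 tiles. All 8 were lost when only the 2 compared groups were fitted (limma adjusted p from 0.113 to 1), so they rest on the spread shared by all 8 groups.

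A second fit per comparison took every tile valued in 2 or more libraries of both groups compared, which let 223 to 668 immunoglobulin tiles enter. It called 4 further tiles, none of them in a comparison of Tet3KO stages or of pro-B Tet3KO with WT. This fit also shared the spread of all 8 groups, and these 4 tiles were not refitted with only the 2 compared groups. In this fit 2 immunoglobulin tiles were called for the stage difference in Tet2KO (background 0.125%), 1 for pro-B Tet2KO against WT (background 0.224%) and 3 for pro-B DKO against WT (background 0.444%). For follicular Tet3KO against WT 1 was called (background 0.0153%) and for follicular DKO against WT 3 were called (background 0.140%). The 10 called tiles are described by locus and part below.

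At the Igh constant end, chr12:114532101-114532200 lies 42.1 kb into the window. Its follicular WT libraries were at 51.1%, 45.7% and 45.7%. The follicular Tet2KO libraries were at 81.0%, 72.4% and 70.8%, the Tet3KO libraries at 100%, 82.2% and 90%, and the DKO libraries with a value at 86.7% and 100%. The 3 WT libraries were the lowest of the follicular ones and did not overlap with any knockout group. In pro-B cells 6 knockout libraries were at 100% and no WT library had a value, so the stage difference in WT could not be followed here. The level was 43.2 points higher in follicular Tet3KO than in WT (SE 4.88, limma adjusted p = 0.00960) and 45.8 points higher in DKO (SE 5.44, limma adjusted p = 0.00514). The Tet3KO call was kept when each of the 6 libraries compared was left out. The DKO call was kept without each of the 3 WT libraries. DKO library 23 had no value here, so leaving it out removed nothing from this comparison. Leaving out library 22 or 24 left DKO without replicates, with differences of 52.5 and 39.2 points. The difference for Tet2KO was 27.2 points and was not called (limma adjusted p = 0.188).

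The tile next to it, chr12:114532001-114532100, was at 39.3%, 27.6% and 32.4% in follicular WT. It was at 77.3%, 92.0% and 90% in follicular DKO, at 55.6%, 40.3% and 31.8% in Tet2KO and at 52.2%, 18.5% and 50% in Tet3KO. DKO did not overlap with WT, and both single knockouts did. The difference of 53.3 points for DKO was not called (SE 14.3, limma adjusted p = 0.339).

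Another tile of the constant end, chr12:114545201-114545300, was at 100% in both pro-B WT libraries with a value and at 56.4% and 50% in pro-B DKO. It was at 74.3%, 81.0% and 61.5% in pro-B Tet2KO. Pro-B DKO less WT was -46.8 points (SE 8.19, limma adjusted p = 0.0263), with 2 libraries on either side, and the call was lost without library 11 (limma adjusted p = 0.0688). In follicular cells the groups overlapped, at 97.1%, 80.9% and 85.7% in WT and at 79.6%, 90.5% and 80% in DKO. The 2 places of the constant end with called tiles thus went in opposite directions in DKO, in different stages.

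At the Igh variable end, chr12:116169401-116169500 lies 1679.4 kb into the window. All 5 WT libraries with a value, 3 pro-B and 2 follicular, were at 0%. The follicular DKO libraries were at 54.5%, 53.8% and 58.3%, and the pro-B DKO libraries with a value at 79.6% and 40.9%. The single knockouts stood between, at 5.88%, 4% and 3.03% in follicular Tet2KO and 10% and 28.6% in follicular Tet3KO, while pro-B Tet3KO was at 0% in both libraries and pro-B Tet2KO at 30.4% and 2.80%. No DKO library overlapped with any other. The DKO level was 60.3 points higher than WT in pro-B cells (SE 9.96, limma adjusted p = 0.0276) and 55.6 points higher in follicular cells (SE 9.96, limma adjusted p = 0.0460). The second call was near the threshold and was kept in 9 of 24 fits that left out 1 library, with an adjusted p of up to 0.232 in limma. The first was kept in 19 of 24, with an adjusted p of up to 0.0538. The neighbouring tile chr12:116169601-116169700 was at 77.8% in follicular DKO library 24, the sole follicular DKO library with a value. It was at 0% in pro-B DKO libraries 10 and 11, and lay between 0% and 8.33% elsewhere.

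The tile chr12:116935201-116935300, at 2445.2 kb, was at 58.1%, 59.3% and 67.4% in follicular WT. The 9 follicular knockout libraries were all higher, at 86.3%, 92.2% and 90.3% in Tet2KO, 95.5%, 95.6% and 76.1% in Tet3KO, and 93.1%, 96.8% and 96.7% in DKO. In pro-B cells WT was at 86.4% and 90.5%, above all 3 follicular WT libraries. The follicular DKO level was 33.9 points higher than WT (SE 5.56, limma adjusted p = 0.0175). The call was lost without library 13 (limma adjusted p = 0.0640) and without library 14 (limma adjusted p = 0.0650). The follicular Tet2KO difference of 28.0 points (limma adjusted p = 0.311), the Tet3KO difference of 27.5 points (limma adjusted p = 0.187) and the WT stage difference of -26.8 points (limma adjusted p = 0.106) were not called.

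The tile chr12:116514501-116514600, at 2024.5 kb, was at 74.2%, 85.1% and 73.2% in pro-B WT and at 97.6%, 95.3% and 100% in pro-B DKO, with no overlap. Follicular WT was at 96.3%, 96.2% and 95%, the level of follicular DKO at 93.2%, 99% and 100%. The pro-B DKO difference was 20.1 points (SE 3.79, limma adjusted p = 0.0311). The difference of 18.3 points between follicular and pro-B WT stayed under the 20 points required (limma adjusted p = 0.0531). The DKO call was lost without library 1, 3 or 12, with limma adjusted p of 0.0684, 0.0538 and 0.0681 and differences of 18.5, 18 and 19 points.

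At Igk, chr6:69074901-69075000 lies 1574.9 kb into the window. Follicular WT was at 61.0%, 47.6% and 49.4%, Tet2KO at 53.8%, 57.5% and 58.2%, Tet3KO at 78.6%, 79.5% and 77.6%, and DKO at 87.1%, 92.0% and 72.7%. The 6 pro-B libraries with a value lay between 93.1% and 100%, above all 12 follicular libraries. WT and Tet2KO overlapped, and both lay below Tet3KO and DKO. The fall from pro-B to follicular cells was called in Tet2KO, at 38.8 points with SE 5.81 (limma adjusted p = 0.0271), and was lost without library 4 (limma adjusted p = 0.0732). The follicular DKO difference of 31.3 points just missed the threshold (SE 5.49, limma adjusted p = 0.0533).

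The other 3 called tiles of Igk and the 1 of Igl rest on pro-B knockout libraries that differed from each other by a wide margin. At chr6:68660701-68660800 the pro-B Tet3KO libraries were at 76.7% and 5.26%, while all others lay between 90% and 100%. The difference from pro-B WT was -59.0 points (SE 12.5, limma adjusted p = 0.0490), and it was -23.3 points without library 9 and -94.7 without library 7. The call was lost in 20 of 24 fits that left out 1 library (limma adjusted p from 0.0529 to 0.0815) and in the fit of tiles of the 2 compared groups (limma adjusted p = 0.0514). At chr6:70038201-70038300 pro-B Tet3KO was at 67.4% and 33.3% and follicular Tet3KO at 82.1%, 92.6% and 88.3%. The stage difference was 37.3 points (SE 8.20, limma adjusted p = 0.0455) and 20.3 points without library 9 (limma adjusted p = 0.302). This call was lost in 18 of 24 fits that left out 1 library, most of them outside the comparison, and with the block of genotype, sex and age strata (limma adjusted p = 0.162). At chr6:69506001-69506100 pro-B Tet2KO was at 46.7% and 72.2% and the other 17 libraries with a value lay between 85.2% and 100%. Pro-B Tet2KO less WT was -40.6 points (limma adjusted p = 0.0395), and follicular less pro-B Tet2KO was 37.6 points (limma adjusted p = 0.0455). Both calls were lost without library 4, at -27.8 and 24.8 points (limma adjusted p = 0.0910 and 0.117). The first was also lost without library 3 (limma adjusted p = 0.0510), and the second without library 16, 17 or 18 (limma adjusted p = 0.0586, 0.0800 and 0.0738).

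At Igl, chr16:19083201-19083300, at 63.2 kb, was at 46.7% and 72.0% in pro-B Tet3KO and between 82% and 100% in the other 20 libraries with a value. It was 38.0 points higher in follicular than in pro-B Tet3KO (SE 5.95, limma adjusted p = 0.00667). Pro-B Tet3KO less pro-B WT was -35.8 points (SE 5.95, limma adjusted p = 0.0102). Both calls were kept in 24 of 24 fits that left out 1 library, although without library 7 the differences were 25.4 and -23.1 points. The stage call was lost with the block of genotype, sex and age strata, at 36.7 points (limma adjusted p = 0.0870), and both were lost when only the 2 compared groups were fitted (limma adjusted p = 0.359 and 1). The pro-B Tet3KO group is the one with the fewest values, and its part in these calls was not tested.

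**Figure D3:**
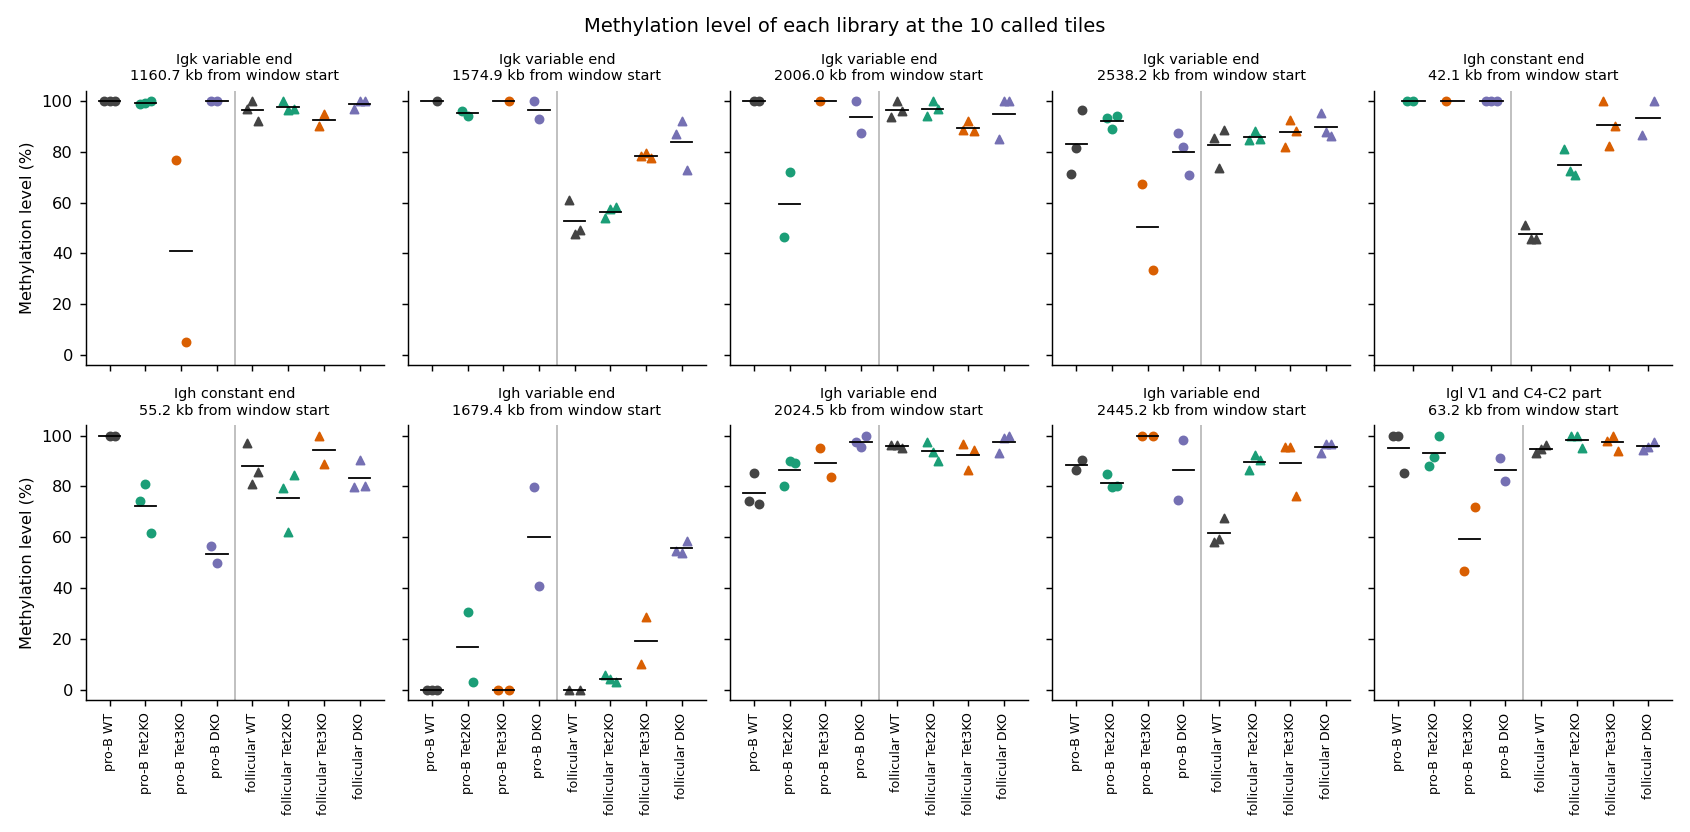
The plot of called tiles gives the level of each library (points, percent) in the 8 groups at the 10 called tiles, with group means as bars; circles are pro-B and triangles follicular libraries. In follicular cells the WT libraries are the lowest at 42.1 and 2445.2 kb of Igh, and DKO is the highest at 1679.4 kb of Igh.

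Tiles with values in all 3 libraries of both groups were also sorted by whether the groups overlapped. For WT, 239 immunoglobulin tiles could be read, and the stages did not overlap at 47 of them (19.7%, against 15% of all such tiles). Of the 47, 39 were lower and 8 higher in follicular cells. Over all tiles of the table with a mean above 80%, 19.8% did not overlap, with 12325 lower and 3401 higher. The sizes named by rule were small. At Igk, chr6:68610801-68610900 was at 100%, 89.4% and 86.1% in pro-B WT and at 62.2%, 83.1% and 75.6% in follicular WT, a difference of -18.2 points that was not called. At the Igh variable end the largest negative difference without overlap was -14.5 points, at chr12:116615201-116615300, where follicular WT stood at 82.7% ± 15.8 and pro-B WT at 97.2% ± 2.43 (SD, n = 3 each). In the D part, chr12:114726901-114727000 was 7.63 points higher in follicular WT. In Igl, 3 tiles were lower in follicular WT, by at most 7.69 points among those named.

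For follicular DKO against WT, 498 immunoglobulin tiles could be read, and the groups did not overlap at 36 (7.23%, against 9.70% of all such tiles and 9.46% of tiles with a mean above 80%). Of the 36, 25 were higher and 11 lower in DKO. Over all such tiles 27404 were higher and 9944 lower, and over those with a mean above 80% 14389 and 6974, so the direction at the loci was close to that of the table. The Igh variable end contributed 12 higher and 6 lower, the Igk variable end 11 and 5, the Igh constant end 1 and 0, and Igl 1 and 0. One more tile of the Igh variable end, chr12:114836201-114836300, was at 73.7%, 79.2% and 57.7% in follicular WT. It was at 92.9%, 85.7% and 84.4% in Tet2KO, at 100%, 96.0% and 91.7% in Tet3KO and at 90.5%, 100% and 95.2% in DKO. The WT libraries were below all 9 knockout libraries, and the DKO difference of 25.1 points was not called (SE 5.52, limma adjusted p = 0.205). In the other direction, chr6:69669601-69669700 was at 78.0%, 88.2% and 86.1% in follicular WT and at 73.3%, 64.7% and 61.5% in DKO, a difference of -17.6 points, and chr6:69074201-69074300 was 17.2 points lower. The Igl tile chr16:19203101-19203200 was 5.66 points higher in DKO.

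Recombination deletes DNA, and deleted tiles give no reads, so the share of tiles with a value in a library was also compared, less the same share over all autosomal tiles of that library. Only having a value can be followed, since the table gives no read counts, and fewer cells with an allele and less DNA read per allele cannot be told apart. In the D part, 11 tiles had a value in at least 1 library. In pro-B cells WT had a mean share with a value of 21.2%, Tet2KO of 36.4%, Tet3KO of 15.2% and DKO of 21.2%, and in follicular cells the shares were 27.3%, 24.2%, 21.2% and 30.3%. Over all autosomal tiles the follicular libraries had on average more values than the pro-B libraries. Relative to that, follicular libraries were 15.9 points below pro-B libraries in the D part (exact two-sided permutation test within genotype, p = 0.00134, adjusted p = 0.0161 over 24 comparisons). Without that correction the difference was 2.27 points in the other direction, so the call rests on the correction. Over tiles valued in at least 12 libraries the corrected difference was -17.7 points and did not pass (exact permutation adjusted p = 0.440).

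Within genotypes the corrected difference in the D part came to -18.3 points for WT (SE 4.58), -16.2 for Tet2KO (SE 8.34), -27.5 for Tet3KO (SE 8.92) and -1.49 for DKO (SE 9.06). The exact permutation p was 0.1 in each of the first 3, the smallest that 3 against 3 libraries can give, and 1 in DKO. The Tet3KO value includes library 8, whose share over all autosomal tiles is 3.15%, so that its corrected value cannot lie below -3.15 points; without it the difference was -21.0 points, over 3 follicular and 2 pro-B libraries and with no test. Whether DKO differed from the other genotypes was not tested. Library 8 counts here with 0 tiles of the D part, and without it the difference over all genotypes was -14.2 points (exact permutation adjusted p = 0.033).

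The Igh variable end was 4.19 points below the table in follicular relative to pro-B libraries (exact permutation p = 8e-04, adjusted p = 0.0161), with -2.74 points for WT, -7.46 for Tet2KO, -2.15 for Tet3KO and -4.42 for DKO. Uncorrected, it was 13.9 points higher in follicular libraries, and over tiles valued in at least 12 libraries the corrected difference of -2.78 points did not pass (exact permutation adjusted p = 0.140). The Igh constant end went the other way, at 7.96 points (exact permutation p = 0.00861, adjusted p = 0.0574), as did the Igk variable end at 3.97 points (exact permutation p = 0.00956, adjusted p = 0.0574), and neither passed adjustment. Igl differed by -4.25 points in the C3-C1 part and -1.27 in the V1 and C4-C2 part, both within the spread between libraries. No comparison of genotypes had an adjusted p below 0.62. The number of tiles per library moves with the stage, and its part in these differences was not tested beyond the correction.

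**Figure D4:**
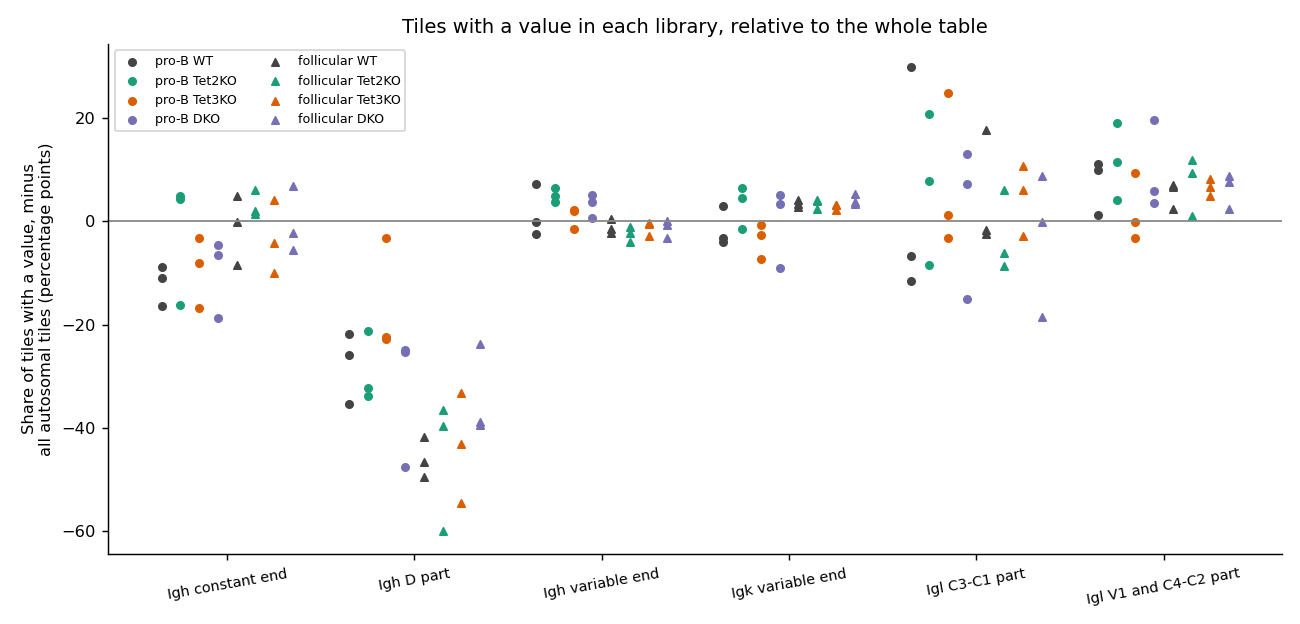
The plot of tiles with a value gives, for each library (points), the share of a locus part's tiles that have a value minus the same share over all autosomal tiles (vertical axis, percentage points); circles are pro-B and triangles follicular libraries, coloured by genotype. The D part lies below 0 in every library, and its follicular WT, Tet2KO and Tet3KO libraries lie below the pro-B libraries of their genotype.

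Some tiles had values in 1 stage alone. Counting tiles with a value in at least 6 libraries of 1 stage and in none of the other, 10 of 974 immunoglobulin tiles (1.03%) were seen in pro-B cells alone, against 0.326% of 767034 autosomal tiles, and 15 (1.54%) in follicular cells alone, against 1.40%. The tiles seen in pro-B cells alone included chr12:116168801-116168900 and chr12:116338301-116338400 at the Igh variable end, each with 9 pro-B libraries, and chr6:70697201-70697300, with 6, at the Igk constant end. Their mean levels were 96.1%, 92.3% and 95.1%. The tiles seen in follicular cells alone included 4 adjacent tiles of Igk, chr6:67881301-67881700, with values in 8 or 9 libraries and mean levels of 76.0%, 50.7%, 38.6% and 38.0%, lower than nearly all of the locus. The tiles named here were chosen after their values were seen, and no test was made of these counts.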

How the data were processed

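RRBS methylation was read in 24 libraries of 8 groups (3 each). The table deposited by the authors holds the methylated fraction of each tile of 100 bp in each library; it was turned into percent here. Trim Galore and methylKit were used per the submitters' processing notes, which name the builds mm9 and hg19. The tiles of chromosome 1 reach position 197193600, and coordinates were taken as mm9. Aligner, conversion rate and coverage minimum are not given in the sources used here. All columns matched a labelled sample.

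Members, part limits (from general knowledge) and lists were chosen with earlier results of these data known. limma 3.58.1 (R 4.3.3) was fitted on percent levels with 8 groups as 1 factor, 16 residual degrees of freedom, a trended prior and Benjamini-Hochberg adjustment over all autosomal tiles. Code was tested on simulated data. Levels per library leave out library 8. Permutation tests were exact and two-sided, with labels permuted within genotype or stage, adjusted over 24 comparisons. Missing values were not imputed. A difference is the first group minus the second, in percentage points.

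Named tiles are those called in any contrast, the 2 largest non-overlapping rises and falls per part for WT stages and follicular DKO against WT, and tiles with a mean under 20%. Alternatives covered scale, tile set, samples fitted, sex, centring, threshold, flanks, a block of genotype, sex and age, and leaving out each library.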

Additional observations from a re-analysis of the deposited data

Results flagged for a closer look

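Among the 32 named tiles, 3 showed groups without overlap in opposite directions in the comparisons given below. Some of them had been named for lacking overlap in such a comparison. Libraries were compared without pairing, since the labels do not say whether the stages share mice. Each of the 3 tiles includes a pro-B group with values in 2 libraries. The share over all tiles was not counted, and the differences were not tested. At chr12:114545201-114545300 (Igh constant end) follicular less pro-B was -12.1 points in WT and 30.2 in DKO, a difference of 42.2 points. At chr12:116935201-116935300 (Igh variable end) follicular less pro-B was -26.8 points in WT and 8.08 in Tet2KO, and Tet2KO less WT was -6.92 points in pro-B and 28.0 in follicular cells, the same difference of 34.9 points. At chr16:19203101-19203200 (Igl) follicular less pro-B was -7.69 points in WT and 8.83 in DKO, and DKO less WT was -10.9 points in pro-B and 5.66 in follicular cells, a difference of 16.5 points.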

How the results depend on the processing

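Counts of called immunoglobulin tiles were small and moved with most settings. The 2 stage calls became 0 on the logit scale, 0 over tiles valued in all 24 libraries (where 5 immunoglobulin tiles remain), 4 with tiles of the 2 compared groups, 0 with only those groups fitted, 1 with sex added and 1 with libraries centred. The 6 genotype calls became 3 on the logit scale, and 0 both over tiles valued in all 24 libraries and with only the 2 compared groups fitted. Leaving out each library gave 1 to 12 stage calls, the highest without library 7, and 2 to 16 genotype calls, the highest without library 3 and the lowest without library 13. Leaving out library 7 or 9 left pro-B Tet3KO with 1 library at nearly all tiles, assumed to vary like the other groups. Of the 8 calls over the wide tile set, 2, both at chr16:19083201, survived every library left out, and none survived fitting only the 2 compared groups (adjusted p from 0.113). The libraries carry no shared replicate numbers. With a block of genotype, sex and age strata, the pairing the labels allow, the stage calls became 1, at chr6:70427701-70427800 (-27.8 points, adjusted p = 0.0146), which was not called without the block, and both tiles called without it were lost (adjusted p = 0.0870 and 0.162).

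None of the 24 comparisons of level passed in the main setting. Over the alternatives and the tests without 1 library, the sign was kept in 590 of 630 pairs of a comparison and a setting. Among the alternatives alone, levels kept their side of the threshold in 77 of 78 such pairs. The exception was the median over tiles in the C3-C1 part of Igl, where follicular libraries were -3.60 points from pro-B (adjusted p = 0.0072). Against the flanks, the stage difference of the Igh constant end lay between -11.0 and -8.13 points with 1 library left out, and passed only without library 1 (adjusted p = 0.0312). For tiles with a value, the uncorrected stage differences were 26.1 points at the Igh constant end, 2.27 in the D part, 13.9 at the Igh variable end and 22.1 at the Igk variable end. Corrected by the flanks, Igk gave 7.82 points (adjusted p = 0.00345). Over tiles valued in at least 12 libraries the D part gave -17.7 points (adjusted p = 0.440) and the Igh variable end -2.78 (adjusted p = 0.140). Leaving out 1 library gave 6.21 to 8.87 points at the Igh constant end (passing 6 times) and 2.87 to 4.62 at the Igk variable end (passing 4 times). The cause was not tested. Without read counts, noise of a single level from few reads cannot be told apart from biological spread.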
